A study of Mus musculus with 9 samples.

Results

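The data described here are the levels of 32 activity-induced genes in RNA from sorted cells of the mouse nucleus accumbens. The genes are immediate early genes other than those of the Fos, Jun and Klf families, chosen by name, and all 32 of them were found among the 52636 genes of the count table. They comprise 4 EGR transcription factors, 3 nuclear receptors of the NR4A family, the neuron-linked genes Arc and Npas4, 4 genes of the IER family, 5 dual-specificity phosphatases, 4 genes of growth arrest and RNA decay, 2 bZIP transcription factors and 8 genes of stress and signalling.

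Immediate early genes are transcribed within minutes of a stimulus by transcription factors that the cell already holds, chiefly SRF and CREB, and need no new protein for it. In striatal neurons they respond to synaptic calcium, dopamine and cocaine, and Arc and Npas4 are largely neuronal, whereas genes such as Egr1, Zfp36 and Nfkbia are also induced in microglia and other cells by cytokines, growth factors, injury and the enzymatic dissociation of tissue. Many of the encoded proteins close feedback loops: dual-specificity phosphatases switch off MAP kinases, Nfkbia holds back NF-kB, and Zfp36 promotes the decay of inflammatory mRNAs.

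The 9 libraries came from male C57BL/6 mice, in 3 groups of 3 named SUS, RES and naive. Mice of the SUS and RES groups had self-administered cocaine, with at most 40 infusions on a fixed ratio and 1.2 mg/kg per infusion in progressive ratio sessions of 23 h on 10 days, and were killed on day 3 after the sessions ended. Naive mice were drug-naive, with the genotype labelled WT. In all 3 groups accumbens punches were pooled from 2 to 3 mice per condition, digested with papain for 45 min at 37 °C, stained with an antibody against choline acetyltransferase (ChAT) and sorted by fluorescence. SUS and RES are the names in the sample titles, which the phenotype field of the labels contradicts, so neither group is taken as susceptible or as resilient mice.

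Total counts were 4471675 to 11155730 per library, and the 32 genes took 0.0619% (RES replicate 3) to 0.405% (SUS replicate 3) of them. The RNA held little of the sorted cell type, as the 12 markers of cholinergic interneurons had a median of 1.04 to 1.83 times background. Background is the count density per exonic kb of 1092 olfactory receptor genes, which the brain does not use, and the median of 42 autosomal genes restricted to other tissues was 1.47 to 2.08 times that density. Chat itself was at 1.27, 7.87 and 0.877 times background in SUS, 1.38, 2.5 and 1.88 in RES, and 1.64, 1.54 and 1.92 in naive. Markers of other cells were higher in some libraries than in others. The 18 microglial markers, each counted in every library, had a median in times background of 36.2, 3.26 and 52.2 in SUS, 15.9, 1.98 and 2.15 in RES, against 17.5, 34.7 and 3.7 in naive. The 16 markers of medium spiny neurons, the principal neurons of the striatum, stood at 4.05, 9.63 and 2.85 in SUS, 5.9, 10.2 and 2.81 in RES, and 3.9, 8.34 and 7.62 in naive. Both marker lists are set beside the results, since fewer cells of a type and less RNA per cell cannot be told apart in bulk libraries.

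Promoter sequences were available for 27 of the 32 genes, as RefSeq windows of 300 bases (250 before and 50 after the start, GRCm38.p6). Shown are those of 4 genes with small p-values in the comparisons whose windows hold a motif of the immediate early response or a TATA box, together with that of Npas4, a neuron-linked gene chosen as a contrast after its values were seen. Each sequence is the 200 bases before the start, 5′ to 3′ on the gene's strand, with motif letters in capitals. For Egr2, which has 5 start sites in the table, the window with the most motifs was taken, 2394 bases from the gene's annotated start.
Egr2, chr10:67537669-67537868, plus strand: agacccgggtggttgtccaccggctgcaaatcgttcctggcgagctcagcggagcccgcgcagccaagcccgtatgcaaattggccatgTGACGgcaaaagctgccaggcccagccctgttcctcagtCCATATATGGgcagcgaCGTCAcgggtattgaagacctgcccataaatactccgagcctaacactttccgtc
Ppp1r15a, chr7:45526269-45526468, minus strand: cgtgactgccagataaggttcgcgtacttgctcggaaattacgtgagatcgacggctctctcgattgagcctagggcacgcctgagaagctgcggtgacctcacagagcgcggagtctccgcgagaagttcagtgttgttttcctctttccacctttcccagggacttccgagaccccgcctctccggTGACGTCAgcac
Gadd45g, chr13:51846475-51846674, plus strand: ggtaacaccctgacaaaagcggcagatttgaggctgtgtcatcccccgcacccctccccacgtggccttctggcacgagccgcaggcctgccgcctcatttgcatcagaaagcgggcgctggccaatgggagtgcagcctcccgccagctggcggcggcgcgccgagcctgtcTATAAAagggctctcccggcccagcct
Zfp36l1, chr12:80113014-80113213, minus strand: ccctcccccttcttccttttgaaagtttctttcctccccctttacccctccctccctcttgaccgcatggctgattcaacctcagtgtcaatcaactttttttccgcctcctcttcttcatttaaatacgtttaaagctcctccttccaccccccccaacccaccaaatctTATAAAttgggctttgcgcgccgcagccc
Npas4, chr19:4989972-4990171, minus strand: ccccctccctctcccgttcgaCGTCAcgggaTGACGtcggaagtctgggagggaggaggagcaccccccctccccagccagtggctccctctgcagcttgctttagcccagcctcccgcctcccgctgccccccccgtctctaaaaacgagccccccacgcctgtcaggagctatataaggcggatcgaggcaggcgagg

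In the Egr2 stretch the long run of capitals is a CArG box, the element that SRF binds, between CRE cores on either strand. Ppp1r15a carries a full CRE, the element of CREB, Npas4 holds a pair of CRE cores, 1 on each strand, and the capitals in Gadd45g and Zfp36l1 are TATA boxes. Over the 27 genes with a window, a CArG box was found in 3 (Dusp5, Egr2 and Zfp36), or 11.1%, against 1.8% of the 27025 genes of the table. The full CRE (TGACGTCA) was in 4 (Btg2, Dusp1, Maff and Ppp1r15a), 14.8% against 2.0%. Its core (TGACG), which also lies inside every full CRE, was in 16, 59.3% against 23.0%. An EGR site (GCGTGGGCG or GCGGGGGCG) was in 4 (Dusp2, Maff, Nr4a1 and Zfp36), 14.8% against 3.9%, and a TATA box (TATAAA) in 8, 29.6% against 15.7%. Both strands of every window were searched, and a gene with several start sites counts if any of its windows held the motif. The TATAAA of Nfkbia and Ppp1r15a lay after the start, and that of Nr4a2 began at base -164. These matches describe letters in the window only, and none of the motifs was in the windows of Ier3, Ier5, Ier5l, Dusp6, Rhob and Tiparp. Egr1, Egr3, Arc, Ier2 and Dusp4 are named only.

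Per exonic kb the 32 genes spanned a wide range of levels. Mean levels over the 9 libraries ran from 1.55 times background for Ier5l to 33.8 for Nfkbia, with Egr1 at 27.5, Rhob at 18.1, Atf3 at 17.8 and Zfp36 at 17. The others at or above 10 were Ppp1r15a (15), Btg2 (13.6), Ier5 (11.1) and Gadd45b (10.3). At the low end, 7 genes averaged under 3 times background: Dusp5, Tiparp, Egr4, Nr4a2, Maff, Dusp4 and Ier5l. Against the silent autosomal genes in place of olfactory receptors, 18 of the 32 genes in place of 25 reached 3 times. Neighbours in this order did not separate. For Nfkbia the libraries spread over 3.42 to 89 times background and for Egr1 over 2.34 to 75.1.

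**Figure D1:**
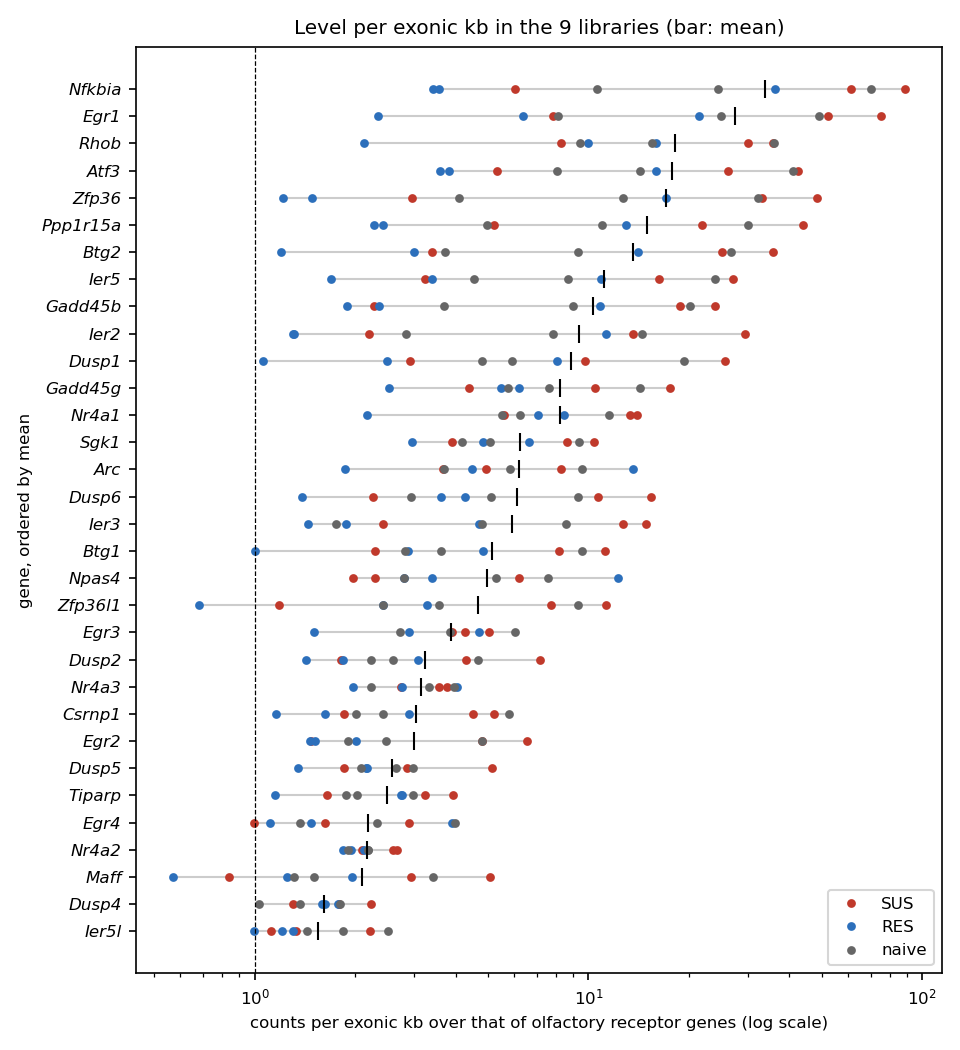
Level of each of the 32 genes in the 9 libraries, as counts per exonic kb over that of olfactory receptor genes (log scale), with 1 point per library (red SUS, blue RES, grey naive), a grey line over the range, a black bar at the mean and a dashed line at background. The ranges of neighbouring genes overlap throughout, and Nfkbia and Egr1 have the highest means, 33.8 and 27.5.

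Levels of most of these genes differed several-fold over the 9 libraries, and also between libraries of the same group. The highest library had 1.66 (Nr4a2) to 52 times (Zfp36) the CPM (counts scaled to a common library size, here by TMM) of the lowest, with a median of 7.79 over the 32 genes, against a median of 2.02 over 13039 protein-coding genes of at least 10 CPM. SUS replicate 3 was the highest library for 25 of the 32 genes, naive replicate 2 for 4, RES replicate 2 for 2 and SUS replicate 1 for 1. Among all 39210 genes tested, SUS replicate 3 was highest for 9705. RES replicate 3 was the lowest library for 18 of the 32 genes, RES replicate 2 for 11, SUS replicate 3 for 2 and naive replicate 1 for 1. Among all genes tested these libraries were lowest for 7203, 5424, 8830 and 1611. RES replicate 3 also had the highest TMM factor, 1.58, and the lowest summed CPM of astrocyte (975) and oligodendrocyte markers (279). The sums of microglial and medium spiny neuron markers were lowest elsewhere, in RES replicate 2 (190) and SUS replicate 3 (860). The summed level of the 32 genes was 2390, 699 and 3950 CPM in SUS replicates 1 to 3, 1540, 694 and 396 CPM in RES libraries, against 1320, 2580 and 786 CPM in naive. The 3 groups overlapped, with SUS replicate 2 below every naive library.

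**Figure D2:**
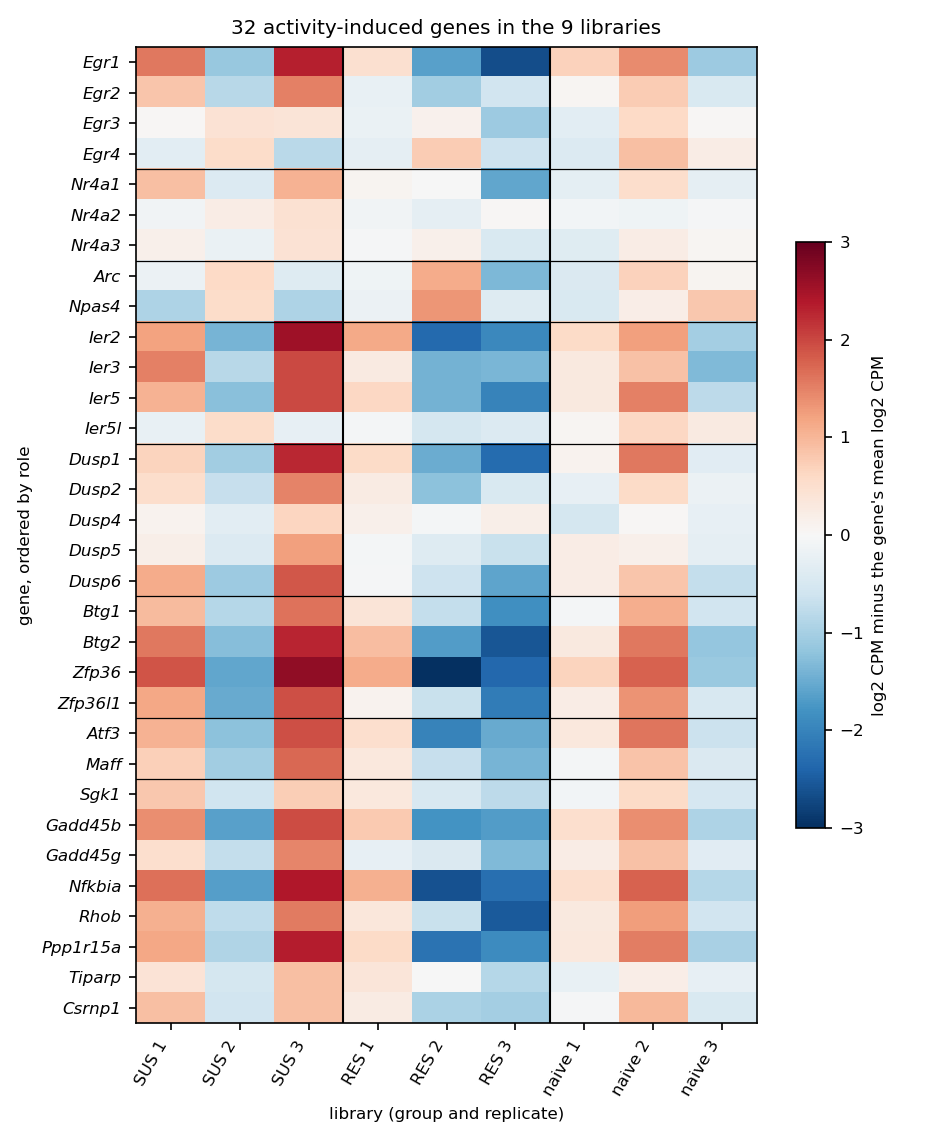
Log2 CPM of each gene in each library minus the gene's mean over the 9 libraries, with genes in rows grouped by role and libraries in columns by group (SUS, RES, naive). SUS replicate 3 is the reddest column for most genes, the column of RES replicate 3 is mostly blue, and the rows of Egr4, Arc, Npas4 and Ier5l differ from this pattern.

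Among the EGR factors, zinc finger proteins that carry the first wave of activity-induced transcription to later genes, Egr1 was the most abundant. It had 456, 69.5 and 760 CPM in SUS replicates 1 to 3, 213, 49 and 24.1 CPM in RES libraries, against 244, 406 and 71.5 CPM in naive. SUS replicates 1 and 3 were above every other library, and SUS replicate 2 was below every naive library and RES replicate 1. Egr2 (ENSMUSG00000037868, chromosome 10, 67535475 to 67542188), which is also required for myelination in peripheral nerve, had 31.7, 9.98 and 50.2 CPM in SUS, 15.1, 8.59 and 11.8 CPM in RES libraries, against 18.4, 29.9 and 12.8 CPM in naive. SUS replicates 1 and 3 again stood above all others. Egr4 had 6.82, 12.4 and 4.84 CPM in SUS, 7.01, 14.4 and 5.46 CPM in RES libraries, against 6.4, 15.7 and 9.81 CPM in naive. Its order was different, with replicate 2 the highest in each group and SUS replicate 3 the lowest library of all. Egr3 lay between 15.2 CPM (RES replicate 3) and 49 CPM (naive replicate 2).

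The NR4A genes encode orphan nuclear receptors that act without a known physiological ligand. Nr4a1 had 96, 38.8 and 106 CPM in SUS, 54.9, 51.1 and 17.4 CPM in RES libraries, against 42.1, 74.4 and 42.9 CPM in naive. SUS replicate 2 was the lowest library but for RES replicate 3, so the groups overlapped. Nr4a2, which midbrain dopamine neurons need for their development, had 16.6, 20.8 and 24.5 CPM in SUS, 16.5, 14.8 and 18.1 CPM in RES libraries, against 16.9, 16.3 and 17.4 CPM in naive. It varied the least of the 32 genes and averaged 2.17 times background. Nr4a3 lay between 27.1 and 50.8 CPM.

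Of the neuron-linked genes, Arc encodes a postsynaptic protein that promotes the removal of AMPA receptors. Arc (ENSMUSG00000022602, chromosome 15, 74669083 to 74672570) had 29.5, 50.2 and 25.4 CPM in SUS, 30.3, 71.5 and 13.1 CPM in RES libraries, against 24.7, 53.8 and 34.9 CPM in naive. Npas4 (ENSMUSG00000045903, chromosome 19, 4984355 to 4990316), a transcription factor induced by calcium entry in neurons, had 18.4, 50.8 and 18.4 CPM in SUS, 31, 87.6 and 26.7 CPM in RES libraries, against 25.3, 40.2 and 61.3 CPM in naive. RES replicate 2 was the highest library for both genes, and SUS replicates 1 and 3, high for most of the 32, were the lowest for Npas4. Group means were close, at 35 ± 13.3 CPM in SUS, 38.3 ± 30 CPM in RES and 37.8 ± 14.8 CPM in naive for Arc (SD, n = 3 each).

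**Figure D3:**
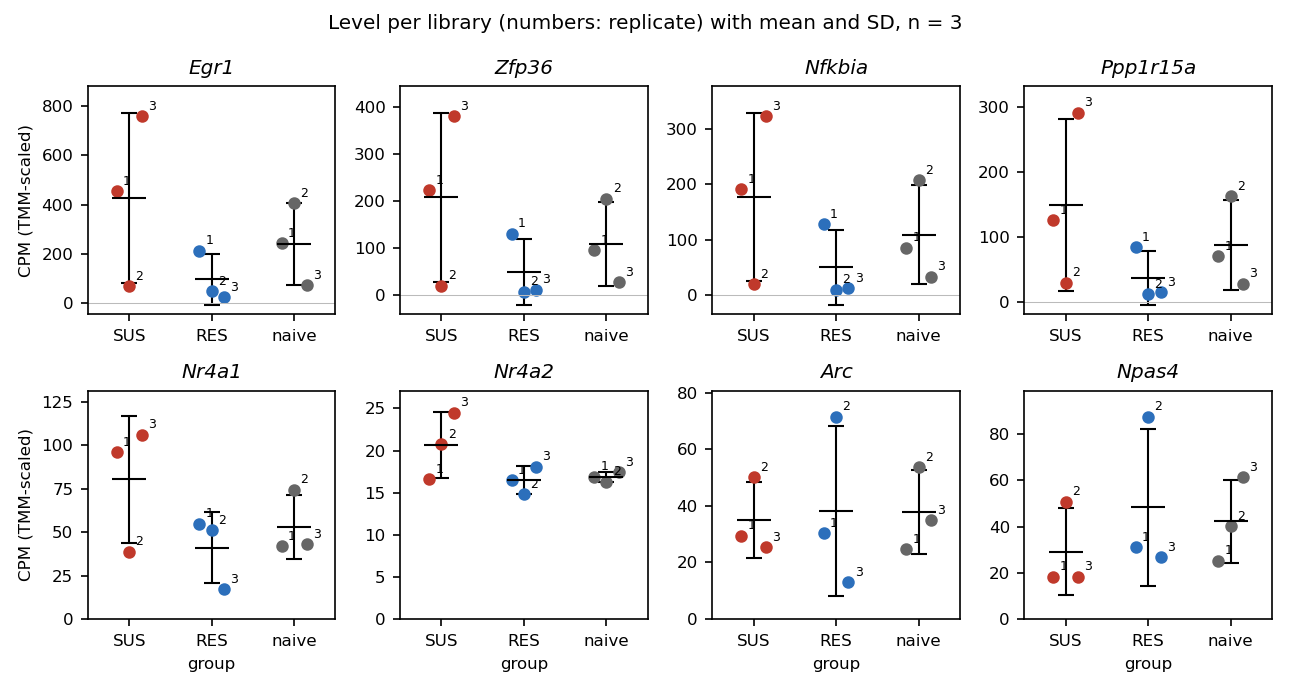
CPM of 8 genes in each library (points, numbered by replicate), with the mean (bar) and SD (error bars) of the 3 libraries in SUS, RES and naive. SUS replicate 3 is highest for Egr1, Zfp36, Nfkbia and Ppp1r15a, Nr4a2 stays between 14.8 and 24.5 CPM, and RES replicate 2 is highest for Arc and Npas4.

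In the IER family, Ier5, a regulator of heat shock factor activity, had 104, 21.2 and 201 CPM in SUS, 78.5, 19.1 and 12.7 CPM in RES libraries, against 62.1, 144 and 29.2 CPM in naive. Ier3 (ENSMUSG00000003541, chromosome 17, 35821684 to 35822923), linked to cell survival and NF-kB signalling, had 27.9, 5.43 and 38.1 CPM in SUS, 11.7, 3.65 and 3.77 CPM in RES libraries, against 11.9, 17.8 and 3.89 CPM in naive. For both genes SUS replicate 2 and naive replicate 3 lay below RES replicate 1, so the groups overlapped. Ier5l had 6.93, 11.8 and 6.77 CPM in SUS, 7.71, 5.58 and 6.11 CPM in RES libraries, against 8.4, 12.4 and 9.72 CPM in naive. All 3 RES libraries were below all 3 naive libraries, at 26 to 105 counts per library in those groups and at 0.994 to 2.51 times background. Ier2 ranged over 3.44 to 101 CPM.

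The dual-specificity phosphatases inactivate MAP kinases, Dusp1 and Dusp2 in the nucleus and Dusp6 in the cytoplasm, where it acts on ERK. Dusp1 had 62.8, 19.3 and 191 CPM in SUS, 58.9, 14.2 and 8.06 CPM in RES libraries, against 42.5, 118 and 31.2 CPM in naive. Dusp6 had 65, 14.1 and 109 CPM in SUS, 29.4, 19.5 and 10 CPM in RES libraries, against 34.8, 53.5 and 18.1 CPM in naive. In both, SUS replicate 3 was highest and RES replicate 3 lowest. Dusp2 had 16.8, 7.21 and 32.4 CPM in SUS, 13.7, 4.94 and 8.45 CPM in RES libraries, against 9.74, 17.2 and 10.2 CPM in naive. Dusp4, a nuclear phosphatase of ERK, had 9.53, 7.09 and 13.8 CPM in SUS, 9.82, 8.38 and 10 CPM in RES libraries, against 6.13, 9.07 and 7.4 CPM in naive. Dusp4 spanned little, at 1.61 times background on average, and the groups overlapped for both genes. Dusp5 lay between 7.67 and 28.7 CPM. Exons of Dusp1 overlap those of Ergic1 on the opposite strand, and the strand setting of the counts is not given in the sources used here, so reads there cannot be told apart.

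Among the genes of growth arrest and RNA decay, Zfp36 (ENSMUSG00000044786, chromosome 7, 28376784 to 28380253) encodes tristetraprolin, which binds AU-rich elements of mRNAs such as that of Tnf. Zfp36 had 223, 20.4 and 380 CPM in SUS, 131, 7.3 and 11.8 CPM in RES libraries, against 95.9, 205 and 28 CPM in naive. The related Zfp36l1 had 45.1, 6.98 and 75.9 CPM in SUS, 21.7, 12.5 and 4.68 CPM in RES libraries, against 23.3, 51.1 and 14.3 CPM in naive. In both genes 5 libraries were high, namely SUS replicates 1 and 3, RES replicate 1 and naive replicates 1 and 2, though for Zfp36l1 the gap below them was smaller. Btg1 and Btg2, antiproliferative proteins that recruit deadenylases, ranged over 12.1 to 133 CPM and 7.54 to 221 CPM. Zfp36 and Zfp36l1 share exonic bases with the opposite-strand transcripts Gm44710 and Gm26669.

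The bZIP factors are Atf3, a stress-induced repressor and marker of injured neurons, and the small Maf protein Maff. Atf3 had 110, 22.8 and 206 CPM in SUS, 75.5, 13.3 and 18.9 CPM in RES libraries, against 66.9, 163 and 34.1 CPM in naive. The same 5 libraries were high, and the 2 lowest were in RES. Maff ranged over 3.38 to 29.6 CPM, at 2.09 times background on average.

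Of the stress and signalling genes, Nfkbia (ENSMUSG00000021025, chromosome 12, 55489410 to 55492647), the inhibitor that retains NF-kB in the cytoplasm and is itself an NF-kB target, had 191, 19.3 and 323 CPM in SUS, 128, 9.88 and 12.6 CPM in RES libraries, against 85.8, 208 and 33.6 CPM in naive. Rhob, a small GTPase of endosomes and the cytoskeleton, had 137, 38.5 and 190 CPM in SUS, 82.7, 40.6 and 11.4 CPM in RES libraries, against 79.2, 156 and 43.7 CPM in naive. Gadd45g, a stress sensor also linked to DNA demethylation, had 24, 10.2 and 46.2 CPM in SUS, 14.2, 12.5 and 6.76 CPM in RES libraries, against 19.5, 30.8 and 13.2 CPM in naive. SUS replicate 3 was highest for all 3 genes, and in each of them SUS replicate 2 was below every naive library. Tiparp, an ADP-ribosyltransferase induced by the aryl hydrocarbon receptor, had 27.6, 14.3 and 38.7 CPM in SUS, 26.6, 20.6 and 11.4 CPM in RES libraries, against 17.9, 23.9 and 17.4 CPM in naive. Ppp1r15a, which directs the dephosphorylation of eIF2alpha and so restores translation after stress, ranged over 12.2 to 291 CPM. Gadd45b ranged over 6.44 to 85.7 CPM, the kinase Sgk1 over 33.4 to 99.5 CPM and the nuclear factor Csrnp1 over 9.23 to 36.9 CPM. Csrnp1 overlaps the microglial gene Cx3cr1 on the same strand, without shared exons. Exons of Ppp1r15a, Tiparp and Csrnp1 overlap Tulp2, 4931440P22Rik and 1700019L13Rik on the opposite strand.

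The comparison of SUS with naive asked how the activity-induced genes stood in one of the cocaine groups. Of the 32 genes 28 had a positive log2 fold change, where 52.2% of all genes tested did, and the median was 0.50 against 0.02 over all genes. None of them passed the test. By edgeR's quasi-likelihood test over 39210 genes 0 genes were called (0% of those tested), and 0 of the 32 had an unadjusted p under 0.05, against 3.12% of all genes. DESeq2 also gave 0 of the 32 (2.37% of all genes), and limma-voom with sample weights 2, a share below its 8.22% of all genes. In none of them did the SUS libraries all lie above or all below the naive libraries, which held for 3.85% of all genes (higher) and 4.15% (lower).

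By role, all 5 phosphatases, all 4 genes of growth arrest and RNA decay, all 8 of stress and signalling, both bZIP factors and all 3 NR4A genes had positive values. The 4 negative ones were Npas4 (-0.54), Egr4 (-0.35), Ier5l (-0.24) and Arc (-0.10). Ier3 had the smallest p, with 23.8 ± 16.7 CPM in SUS and 11.2 ± 7 CPM in naive (SD, n = 3 each) and a log2 fold change of 1.17 (SE 0.612, 95% interval -0.03 to 2.36). It was followed by Dusp4 (0.45, SE 0.271), Dusp6 (0.84, SE 0.57), Dusp2 (0.64, SE 0.444), Egr2 (0.62, SE 0.446) and Nr4a1 (0.60, SE 0.448). All 6 had an adjusted p of 1 by edgeR's quasi-likelihood test. Egr1 was at 429 ± 346 CPM in SUS and 240 ± 167 CPM in naive, a log2 fold change of 0.84 with an interval of -0.81 to 2.49.

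This direction rested on SUS replicate 3. Without it the median of the 32 genes was -0.005 and 17 were lower, while it was 0.95 without SUS replicate 2, 0.98 without naive replicate 2 and 0.27 without naive replicate 3. Without SUS replicate 2, 12 of the 32 had an unadjusted p under 0.05, against 8.84% of all genes. The 18 microglial markers were all higher in SUS than in naive by value (median log2 fold change 0.84, none with an unadjusted p under 0.05), with summed levels of 362 to 7210 CPM in SUS and 419 to 4240 CPM in naive. All 11 oligodendrocyte markers were higher too (median 0.46), with sums of 572 to 2520 CPM in SUS and 404 to 1540 CPM in naive. Of the 16 medium spiny neuron markers 10 were lower by value (median -0.16), as were 12 of the 14 astrocyte markers (median -0.29). The part of these lists in the difference was not tested.

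The same question was asked of RES and naive. Of the 32 genes 29 had a negative log2 fold change, where 52.6% of all genes tested did, and the median was -0.72 against -0.02 over all genes. Abundant genes in general were mostly lower too. Of the 5735 protein-coding genes at 3 times background or more, 4509 were lower, with a median of -0.155. Among the 25 of the 32 genes at that level 23 were lower, with a median of -0.84. No gene was called (0% of those tested) by edgeR's quasi-likelihood test, DESeq2 or limma-voom, and 1 of the 32, Ier5l, had an unadjusted p under 0.05, against 0.921% of all genes. DESeq2 and limma-voom gave 0 such genes of the 32, and a fit of the RES and naive libraries alone gave 7, against 1.87% of all genes. Ier5l was also the single one whose RES libraries all lay below the naive libraries, which 2.82% of all genes did, while none of the 32 lay all above, against 3.31%. RES and SUS were set against the same 3 naive libraries, so the 2 comparisons are not independent.

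Ier5l averaged 6.47 ± 1.11 CPM in RES and 10.2 ± 2.03 CPM in naive (SD, n = 3 each), a log2 fold change of -0.63 (SE 0.284, 95% interval -1.18 to -0.07). It averaged 1.55 times background and 0.861 times the median of the silent autosomal genes. Next came Gadd45g (-0.91, SE 0.463), Atf3 (-1.28, SE 0.748), Zfp36l1 (-1.17, SE 0.683), Egr2 (-0.75, SE 0.462) and Rhob (-1.04, SE 0.655). The adjusted p by edgeR's quasi-likelihood test was 1 for all 6. Atf3 averaged 35.9 ± 34.4 CPM in RES and 87.9 ± 66.8 CPM in naive, and Rhob 44.9 ± 35.8 CPM in RES and 92.9 ± 57.2 CPM in naive. Egr1 had the most negative value of all 32, -1.33 (SE 0.853), with 95.4 ± 103 CPM in RES and 240 ± 167 CPM in naive. Every EGR, NR4A, IER, bZIP, growth arrest and stress gene was negative by value, and the 3 positive ones were Dusp4 (0.35), Npas4 (0.19) and Arc (0.02).

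Leaving out RES replicate 1 moved the median to -1.21 and gave 15 of the 32 an unadjusted p under 0.05 (1.99% of all genes), and without SUS replicate 2, which enters through the shared spread, 5 had one (1.35%). With limma-voom the median was -0.31. The median was -0.45 without RES replicate 3 and -0.23 without naive replicate 2, with 0 such genes in either case. All 18 microglial markers were lower by value (median -1.29), with sums of 190 to 2310 CPM in RES and 419 to 4240 CPM in naive. So were all 11 oligodendrocyte markers (median -0.65), with sums of 279 to 871 CPM in RES and 404 to 1540 CPM in naive. Of the 16 medium spiny neuron markers 8 were lower (median -0.006), and of the 14 astrocyte markers 9 were (median -0.07). The part of these lists was not tested.

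The direct comparison of SUS with RES, which is also the test of whether the 2 cocaine groups differ in their distance from naive, held the largest values. Of the 32 genes 29 were higher in SUS by value, where 51.2% of all genes tested were, and the median log2 fold change was 1.32 against 0.01 over all genes. Of these, 16 had an unadjusted p under 0.05, all with positive values, against 5.68% of all genes in either direction and 4.01% higher. After Benjamini-Hochberg adjustment of edgeR's quasi-likelihood test none was called (0% of all genes), and 0 of the 32 had libraries without overlap, against 3.41% (higher) and 4.22% (lower) of all genes. Abundant genes tended the same way. The 25 of the 32 genes at 3 times background or more had a median of 1.56, with 14 at an unadjusted p under 0.05, and the 5735 protein-coding genes at that level had a median of 0.12, with 647.

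Ier3 averaged 23.8 ± 16.7 CPM in SUS and 6.39 ± 4.64 CPM in RES (SD, n = 3 each), a log2 fold change of 1.90 (SE 0.634, 95% interval 0.66 to 3.14). Egr2 averaged 30.6 ± 20.1 CPM in SUS and 11.8 ± 3.24 CPM in RES, a log2 fold change of 1.36 (SE 0.457, interval 0.47 to 2.26). Their unadjusted p-values by edgeR's quasi-likelihood test were 0.00905 and 0.00918, and both adjusted p-values were 0.87. Then came the phosphatase Dusp6 (1.68, SE 0.585), Gadd45g (1.28, SE 0.457), Zfp36l1 (1.73, SE 0.681) and Egr1 (2.17, SE 0.874), each again with an adjusted p of 0.87 by that test. Egr1 stood at 429 ± 346 CPM in SUS and 95.4 ± 103 CPM in RES, and SUS replicate 2 was below RES replicate 1 for all 6 genes. The other genes with an unadjusted p under 0.05 were Ppp1r15a, Dusp5, Dusp2, Maff, Csrnp1, Dusp1, Btg1, Atf3, Rhob and Nr4a1. By role, 4 of the 5 phosphatases, 4 of the 8 stress genes, both bZIP factors, 2 of the 4 genes of growth arrest and RNA decay, 2 of the 4 EGR factors, 1 of the 4 IER genes and 1 of the 3 NR4A genes were among the 16.

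The genes lower in SUS by value were Npas4 (-0.72), Egr4 (-0.12) and Arc (-0.12). Npas4 averaged 29.2 ± 18.7 CPM in SUS and 48.4 ± 34 CPM in RES, and SUS replicate 2 lay above 2 of the RES libraries.

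The number of the 32 genes with an unadjusted p under 0.05 moved with single libraries. It was 1 without SUS replicate 3 (median 0.67), where 2.91% of all genes had one, so the 32 genes then stood at the share of all genes. It was 2 without RES replicate 3 (2.79% of all genes), 6 without RES replicate 2 (4.05%), 10 without SUS replicate 1 (5.43%) and 25 without SUS replicate 2 (11.6%). DESeq2 gave 11 (4.81%). Limma-voom with sample weights gave 5 (8.59%), with a median of 0.82. All 18 microglial markers were higher in SUS by value as well (median 2.09, 12 of them with an unadjusted p under 0.05), as were all 11 of oligodendrocytes (median 1.15, 6 such genes). Microglial sums were 362 to 7210 CPM in SUS and 190 to 2310 CPM in RES, and oligodendrocyte sums 572 to 2520 CPM in SUS and 279 to 871 CPM in RES. Medium spiny neuron markers went the other way by value in 12 of 16 (median -0.11), and astrocyte markers in 11 of 14 (median -0.25). The part of these lists in the difference was not tested.

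**Figure D4:**
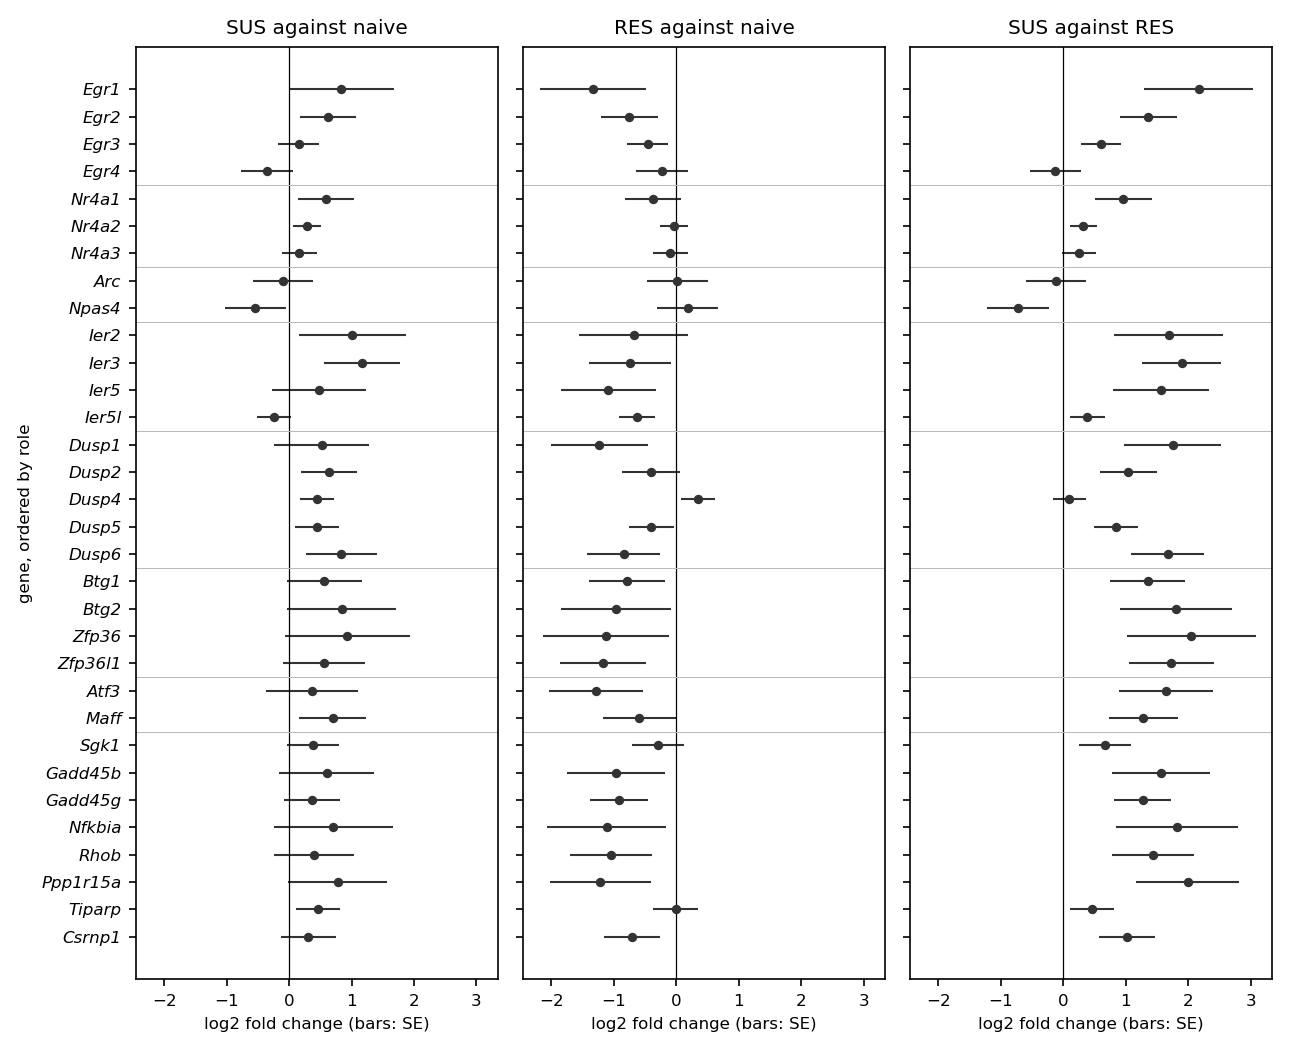
Log2 fold change (point) and standard error (bar) of the 32 genes for SUS against naive, RES against naive and SUS against RES, grouped by role, with positive values meaning higher in the group named first. The points lie mostly right of 0 for SUS against naive (median 0.50), left of 0 for RES against naive (median -0.72) and right of 0 for SUS against RES (median 1.32), with Npas4 on the other side in each.

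All cocaine libraries together (6, SUS and RES) were then set against the 3 naive libraries. The genes stood about level, with 20 of the 32 higher and 12 lower by value and a median log2 fold change of 0.08 against 0.01 over all genes, of which 51.4% were positive. None was called (0% of all genes), 0 had an unadjusted p under 0.05 against 1.38% of all genes, and in 0 did the libraries separate, against 0.617% (higher) and 0.553% (lower). The smallest p belonged to Dusp4, with 9.77 ± 2.25 CPM in the cocaine libraries (SD, n = 6) and 7.54 ± 1.47 CPM in naive (n = 3) and a log2 fold change of 0.40 (SE 0.233). After it came Ier5l (-0.41, SE 0.243), Egr4 (-0.29, SE 0.352), Tiparp (0.25, SE 0.322), Ier3 (0.53, SE 0.69) and Nr4a2 (0.14, SE 0.197), all 6 with an adjusted p of 1 by edgeR's quasi-likelihood test. All of these but Ier3 averaged under 3 times background, from 1.55 (Ier5l) to 2.49 (Tiparp). Egr1 averaged 262 ± 292 CPM in the cocaine libraries and 240 ± 167 CPM in naive. For Egr1 and Dusp4 the SD within the cocaine libraries exceeded the difference from naive. DESeq2 and limma-voom also gave 0 of the 32 an unadjusted p under 0.05.

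Other genes of the same response were set beside these. The 7 Fos and Jun genes had median log2 fold changes of 0.65 for SUS against naive, -0.96 for RES against naive and 1.75 for SUS against RES. In the last of these 5 of the 7 had an unadjusted p under 0.05, against 5.68% of all genes, led by Jund (2.08, SE 0.632) and Fosb (1.81, SE 0.654). The 10 Krueppel-like factors had medians of 0.21, -0.32 and 0.60 in the same order of comparisons, and Klf4 was at 1.54 (SE 0.528) for SUS against RES. Upstream of them, 35 kinases and transcription factors that switch on immediate early genes had medians of 0.12, -0.19 and 0.26, with 5 of the 35 at an unadjusted p under 0.05 for SUS against RES, where 5.68% of all genes were. The SRF partner Elk4 (0.96, SE 0.312) and the kinase Rps6ka1 (1.58, SE 0.534) had the smallest. A further list of activity-induced genes, which includes Bdnf and Homer1, was nearly level, at -0.11, -0.14 and 0.03 over 31 genes. For SUS against RES 2 of the 31 had an unadjusted p under 0.05, a share near the 5.68% of all genes, and these were Rgs2 (1.41, SE 0.545) and Plk3 (1.16, SE 0.451). No gene of these lists was called in any comparison by edgeR's quasi-likelihood test.

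Set against the marker sums, the 32 genes fell into unlike patterns, a description chosen after the values were seen. The summed CPM of the 18 microglial markers was 5250, 362 and 7210 in SUS replicates 1 to 3, 2310, 190 and 275 in RES, and 2310, 4240 and 419 in naive. The 5 libraries with the highest sum, SUS replicates 1 and 3, RES replicate 1 and naive replicates 1 and 2, were also the 5 highest for 21 of the 32 genes, against 4.2% of all genes tested. They were Egr1 and Egr2, Ier2, Ier3 and Ier5, Dusp1, Dusp5 and Dusp6, all 4 genes of growth arrest and RNA decay, both bZIP factors and 7 of the 8 stress and signalling genes. These 5 libraries were not set apart by microglial markers alone. They were also the 5 highest for the summed CPM of the 11 oligodendrocyte markers, at 871 to 2520 CPM against 279 to 572 CPM in the other 4. The same held for the share of counts from mitochondrial genes, at 17.7% to 28.7% against 9.09% to 17.1%. By which 5 libraries are highest these measures cannot be told apart, but within the 5 their order differed. SUS replicate 3 had the highest microglial sum, 7210 CPM. Its oligodendrocyte sum was 872 CPM, against 2520 CPM in SUS replicate 1, and its mitochondrial share, 17.7%, was the lowest of the 5. The part of none of these measures was tested.

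The sum of the 16 medium spiny neuron markers was 1690, 3340 and 860 CPM in SUS, 2560, 3260 and 983 CPM in RES libraries, against 1750, 3250 and 2680 CPM in naive. Its 5 highest libraries, SUS replicate 2, RES replicates 1 and 2 and naive replicates 2 and 3, were the 5 highest for 3 of the 32 genes, Egr4, Arc and Npas4, against 4.08% of all genes, so little is read from the count. The remaining 8, Egr3, Nr4a1, Nr4a2, Nr4a3, Ier5l, Dusp2, Dusp4 and Tiparp, matched neither set.

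Each gene's CPM was also divided by a marker sum. Zfp36 ranged 52-fold over the libraries in CPM and 1.74-fold per microglial CPM. Per 1000 microglial CPM it stood at 42.5, 56.4 and 52.7 CPM in SUS, 56.7, 38.4 and 43 CPM in RES libraries, against 41.5, 48.3 and 66.9 CPM in naive. The groups overlapped on this scale, where SUS replicate 3, the highest library in CPM, was the fourth highest. Nfkbia ranged 32.7-fold in CPM and 2.2-fold per microglial CPM, Ier2 29.5-fold and 2.65-fold, Egr1 31.6-fold and 2.96-fold, and Gadd45b 13.3-fold and 3.05-fold. For Egr1 the ratios per 1000 microglial CPM were 87, 192 and 105 in SUS, 92.2, 258 and 87.4 in RES, and 106, 95.7 and 171 in naive. The highest were in SUS replicate 2, RES replicate 2 and naive replicate 3, which are 3 of the 4 libraries with a microglial sum of at most 419 CPM. In all, 15 of the 32 genes had a narrower range per microglial CPM than in CPM, against 0.862% of all genes above 0 in every library, while the microglial sum itself ranged 37.9-fold. A gene of small range cannot narrow when divided by such a sum. The median range was 7.79-fold over the 32 genes and 2.02-fold over protein-coding genes of at least 10 CPM, so nothing is read from the share of all genes. Ratios to the oligodendrocyte sum or the mitochondrial share were not formed. All 15 were among the 21 genes above. The other 6 of the 21, Egr2, Dusp5, Maff, Sgk1, Gadd45g and Csrnp1, had a wider range per microglial CPM, as for Egr2 (5.84-fold in CPM, 7.47-fold as a ratio) and Dusp5 (3.73-fold and 18.5-fold).

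Per medium spiny CPM 3 of the 32 genes had a narrower range, against 8.26% of all genes, a share near theirs from which nothing is read. They were Arc (5.44-fold in CPM, 2.5-fold as a ratio), Npas4 (4.77-fold and 2.48-fold) and Egr4 (3.25-fold and 2.06-fold). That sum ranged 3.88-fold. For Zfp36 the range per medium spiny CPM was 197-fold. Whether the 32 genes were transcribed in microglia, in neurons or in both was not measured in these libraries, and the part of microglial RNA in the group differences was not tested.

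**Figure D5:**
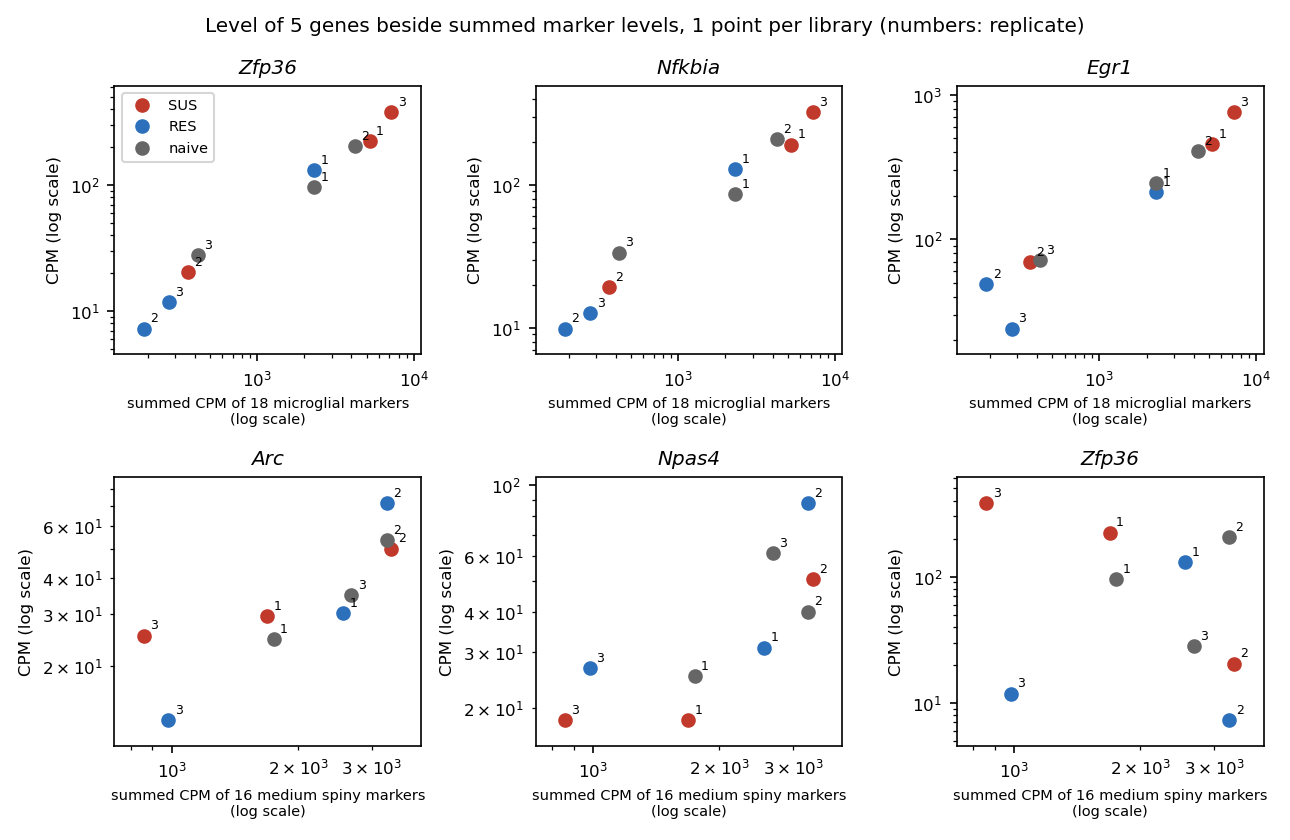
CPM of 5 genes in each library (points, numbered by replicate, coloured red SUS, blue RES and grey naive) against the summed CPM of 18 microglial markers (upper row: Zfp36, Nfkbia, Egr1) or 16 medium spiny neuron markers (lower row: Arc, Npas4, Zfp36), all axes on log scales. In the upper row the points lie along a rising line, with 5 libraries at sums of 2310 CPM or more and 4 at 419 CPM or less, and in the lower row Arc and Npas4 are highest at the high sums whereas Zfp36 is highest at the lowest sum, 860 CPM in SUS replicate 3.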

How the data were processed

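The authors deposited raw counts of sequencing reads per gene, 52636 mouse genes with Ensembl IDs by 9 libraries, unscaled. The submitters' processing notes list the build GRCm38 and the tools STAR 2.5.2b, HTSeq, FastQC, DESeq and DESeq2 without their roles, and neither the strand setting nor the annotation release is given in the sources used here. Positions and exonic lengths came from GENCODE mouse release M21 (52489 of the IDs) and symbols from it and a further table (52403 IDs).

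Genes were filtered with filterByExpr, which left 39210 and kept all 32 members, scaled by TMM and tested with edgeR's quasi-likelihood test in edgeR 4.0.16 (R 4.3.3, with limma 3.58.1 for voom), and p-values were adjusted by Benjamini-Hochberg over all genes tested at 0.05. A 3-group model gave the 3 pairwise comparisons, and a 2-group model that of cocaine with naive. SE is the log2 fold change over the root of its F statistic, and 95% intervals assume a normal error. The median SE of the 32 genes was 0.517 (SUS against naive), 0.535 (RES against naive), 0.525 (SUS against RES) and, for all cocaine libraries, 0.524. Alternatives were DESeq2 1.42.0, limma-voom with sample weights, other scalings and filters, other libraries in the fit, the replicate number as a block, and each library left out in turn. The fits were also run on simulated counts with known changes. Genes varied independently there, so those runs say nothing about genes that vary together. As the labels do not say that each library had its own pool of mice, the p-values reflect only how much these libraries vary.

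The 32 genes, the marker and context lists and the tests were chosen with earlier results of these data known. All 32 genes are named, with values in every library for Egr1, Nr4a1, Arc, Npas4, the highest gene per kb of each role and the 6 genes with the smallest p per comparison. Of each context list at most 2 genes per comparison were taken by smallest p. Promoters shown were those of genes with small p-values whose windows hold a motif or a TATA box, and that of Npas4 as a contrast. No sample or column was left out.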

Additional observations from a re-analysis of the deposited data

How the results depend on the processing

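The number of genes called was 0 in each comparison under every alternative run. For cocaine against naive the median log2 fold change of the 32 genes (0.08, 12 lower) turned with limma-voom (-0.189, 24 lower), with the mean of the SUS and RES coefficients (-0.102, 21 lower) and with replicate numbers as a block (-0.202, 22 lower), and leaving out 1 library gave -0.342 to 0.520 with 2 to 26 lower. The cause was not tested. With 1 library left out the medians were -0.005 to 0.976 for SUS against naive (3 to 17 lower), -1.205 to -0.232 for RES against naive (25 to 31 lower) and 0.674 to 1.757 for SUS against RES (1 to 3 lower), and Egr4 ran from -0.567 to 0.042 for cocaine against naive. With the block the medians were 0.436, -0.857 and 1.283 in that order, and 11 of the 32 genes in place of 16 had an unadjusted p under 0.05 for SUS against RES. The replicate numbers were not taken to pair libraries, since the deviations of same-numbered libraries correlated at -0.217 to 0.212, over 0.1 in 3 of 9 pairs, against -0.385 to 0.377 in the 18 other pairs. With limma-voom the medians of the pairwise comparisons were 0.494, -0.31 and 0.822, the last pair over 1.5 times nearer 0 than the medians reported. Upper-quartile scaling left the medians of the pairwise comparisons at 0.461, -0.657 and 1.21. The 32 genes had 3044 to 32705 counts per library in sum, and 3 libraries a group set the precision.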
